A study of Drosophila melanogaster with 18 samples.

Results

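The comparison is the S9.6 level of hrp48-knockdown S2 cells against that of LacZ control cells, both without RNase H treatment, region by region. The difference is the group mean of hrp48 minus that of LacZ, each on the scale log2(normalised count + 1), so a negative value is a lower level in hrp48 cells. It was taken first over the 2980 regions of the hrp36 table, out of 17192 regions in 3 deposited tables, because these regions were found in libraries of neither compared group. The 7735 regions of the hrp48 table and the 6477 of the LacZ table were then used as checks on that choice of regions. The median difference over the hrp36-table regions was -0.15, and none of these regions differed by more than 1 log2 unit. The checks did not keep this result. Of the hrp48-table regions, 3762 (48.6%) lay more than 1 log2 unit higher in hrp48 cells. Only 2 hrp36-table regions overlapped any of those 3762, so the median of -0.15 does not describe them. Of the LacZ-table regions, 37 (0.571%) lay more than 1 log2 unit lower. Each check used regions found in a compared group, so its counts describe that choice as well as the difference.

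The study was a DRIP-seq experiment on 18 libraries of S2 cells, an established line of Drosophila melanogaster whose labels also name a late-stage primary culture. The tested cells carried a knockdown of hrp48, and the control cells were labelled LacZ, a bacterial gene absent from flies. Both groups were the untreated S9.6 precipitates, labelled RNH-, with 2 libraries each, so 4 libraries enter the comparison. Cells with a knockdown of hrp36 and the material labelled RNH+ (read here as treated with RNase H) are given only beside it. The labels give no dose, time or length of the knockdown, and they do not say whether 2 libraries of a group came from separate cultures.

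RNA-DNA hybrids form when a transcript pairs with the DNA strand it was copied from and displaces the other strand, a structure called an R-loop. The S9.6 antibody recovers such hybrids from genomic DNA, and RNase H removes them by degrading their RNA strand. The protein hrp48 is an abundant RNA-binding protein of the hnRNP A/B family, which coats nascent transcripts and takes part in splicing and mRNA localisation in flies. Its gene carries the symbol Hrb27C and lies on chromosome arm 2L, and hrp36 is the product of Hrb87F on 3R.

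The deposited tables hold 1 mean per group and no values of single libraries, so no SD of a level can be given and the depth per library is unknown. The yardstick for replicate spread was the standard error of the RNH+ over RNH- change in the authors' deposited table, with its shrinkage undone. It belongs to another contrast of 2 against 2 libraries, so the Wald test built on it is approximate, and its p-values measure the spread between libraries, which may be technical. Over the hrp36-table regions this error had a median of 0.39 log2 units and ran between 0.27 and 0.66. Positions are on the dm3 build. The regions carry no gene names, and no annotation of that build was used here.

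In the hrp36 table, hrp48 cells had a median RNH- level of 7.86 and LacZ cells one of 8.07, with hrp36 cells at 8.51. Of the 2980 regions, 2248 lay lower in hrp48 cells and 732 higher. The quartiles of the difference were -0.30 and -0.00, and its range was -0.95 to 0.97. Past 1 log2 unit, a factor of 2, there were 0 regions (0%) in either direction. Past 0.5 log2 units there were 179 regions lower in hrp48 cells (6.01%) and 48 higher (1.61%). The approximate Wald test with Benjamini-Hochberg adjustment over the table called 0 regions (0%) in either direction, and its smallest adjusted p was 0.999. Unadjusted, 30 regions lower in hrp48 cells and 0 higher had a p under 0.05 (1.01% of the table). The difference was larger than its approximate error at 532 regions and larger than 2 such errors at 26. The SD of the difference between regions was 0.26, below the median error of 0.39. The borrowed error may thus be too wide for this difference, and 0 calls do not show that the levels were equal.

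The direction of this small shift depends on the scale of the group means. When the difference was centred on the median of the chromosome arms, which was -0.26, only 30.8% of regions lay below 0, against 75.4% as deposited. The centred median was 0.11, and 4 centred regions lay above 1. The rank of one region against another does not depend on that centring. Counts below of regions lower or higher in hrp48 cells are as deposited unless called centred, and such counts do depend on it.

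**Figure D1:**
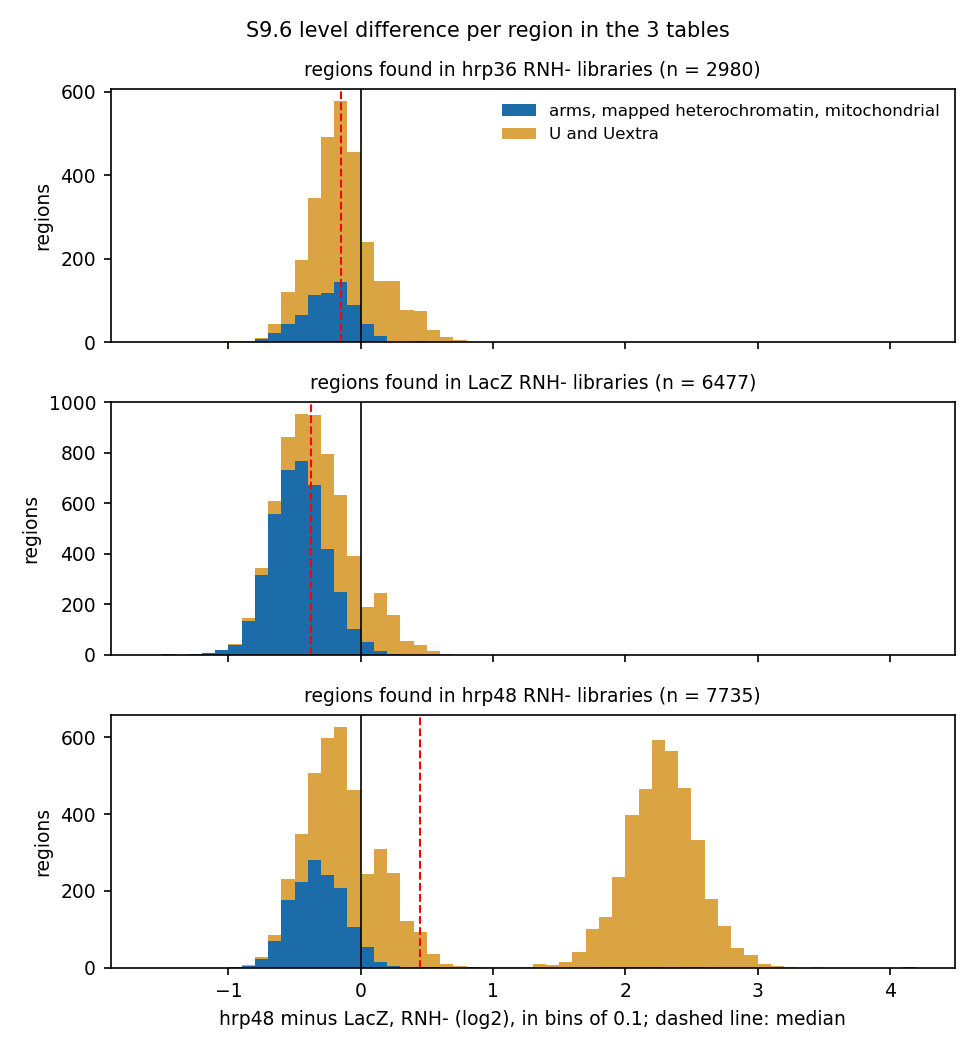
Number of regions (vertical axes) by the difference in RNH- level, hrp48 minus LacZ, in log2 units and bins of 0.1 (horizontal axis), for regions found in hrp36, LacZ and hrp48 RNH- libraries. Blue is the part of each bar on mapped chromosomes and mitochondrial DNA, yellow the part on the unplaced scaffolds U and Uextra; the hrp36 and LacZ tables form 1 hump below 0, with medians of -0.15 and -0.38, and the hrp48 table has another, unplaced, hump above 1.

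By chromosome, the largest class on mapped sequence was the euchromatic arms, where the bulk of fly genes lies. There the median over 470 regions was -0.26 (quartiles -0.39 and -0.12), and 426 regions were lower and 44 higher in hrp48 cells. All 66 arm regions past 0.5 log2 units were lower. The whole-chromosome medians were -0.34 on 2L (151 regions), -0.18 on 2R (80), -0.22 on 3L (97), -0.26 on 3R (82) and -0.19 on X (109). Arm 2L held 42 of its 151 regions below -0.5, and 35 of those were in the stretch of the histone genes described below. Without that stretch, the arm part of 2L had a median of -0.22 over 94 regions, and the arms together one of -0.22 over 419.

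Heterochromatin, the compacted and repeat-rich part of the genome around the centromeres, was mapped to the arm ends, the Het scaffolds and chromosome 4. The pericentromeric ends of the arms had a median of -0.14 over 49 regions, 45 of them lower. The Het scaffolds, which hold heterochromatin mapped to a chromosome, had a median of -0.21 over 138 regions, 125 of them lower. Their single medians were -0.21 on 2LHet, -0.22 on 2RHet, -0.18 on 3LHet, -0.22 on 3RHet, -0.29 on XHet and -0.16 on YHet. Chromosome 4, the small and largely heterochromatic chromosome, had 5 regions, all lower in hrp48 cells, with a median of -0.42 and a range of -0.49 to -0.17. Centring on the arm median turned the medians of the pericentromeric parts and Het scaffolds to above 0 (0.12 and 0.05). Below 0 after centring lay 12 of the 49 pericentromeric regions, 54 of the 138 on Het scaffolds and 4 of the 5 on chromosome 4.

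Most regions of the table, 2316 of 2980, lay on unplaced scaffolds, which collect repeats. On U the median was -0.14 over 208 regions, with 169 lower. On Uextra it was -0.13 over 2108 regions, with quartiles of -0.27 and 0.06, and 1477 were lower and 631 higher. After centring on the arm median, 45 regions of U and 567 of Uextra lay below 0. Uextra held 45 of the 48 regions above 0.5, which is 2.13% of its regions against 1.61% of the table. It also held 99 of the 179 below -0.5, which is 4.70% of its regions against 6.01% of the table. The sources used here do not give how reads that map to several places were counted, so repeat copies may share reads and are not independent measurements.

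**Figure D2:**
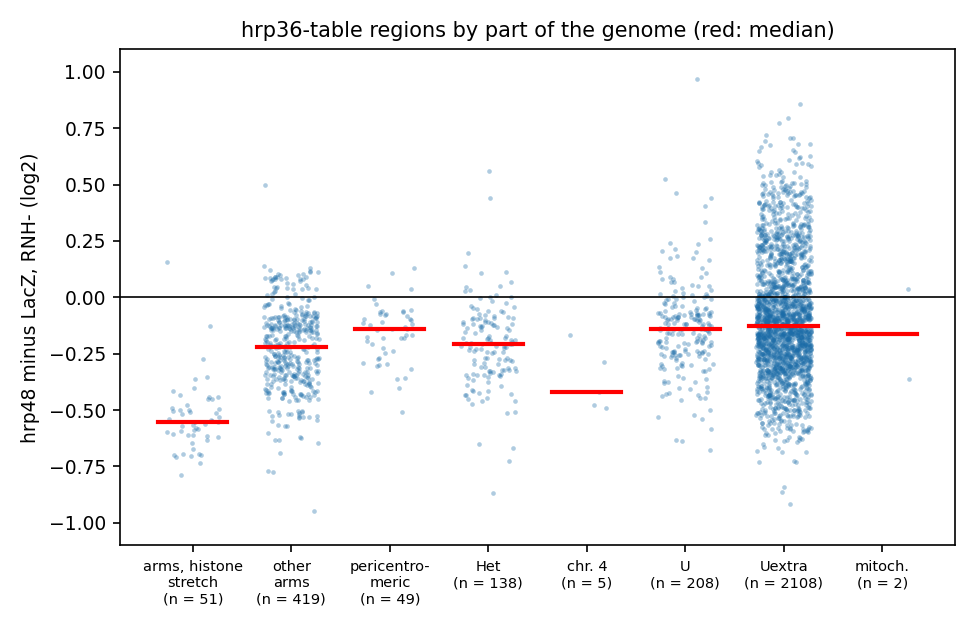
Difference in RNH- level, hrp48 minus LacZ, in log2 units (vertical axis), for each hrp36-table region by part of the genome (horizontal axis, with the number of regions). Each blue point is 1 region and each red line a median; the 51 regions of the histone stretch centre on -0.56, below the -0.22 of the other arm regions, and Uextra holds points between -0.92 and 0.86.

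The lowest stretch of mapped chromosome in the hrp36 table was on 2L between 21417190 and 21598534. The repeated histone genes of the fly lie there by general knowledge of the dm3 map. The borders of that interval were rounded, and the tables do not annotate it. Its 51 regions covered 46149 bases. In hrp48 cells their RNH- level had a median of 6.92 (5.78 to 8.46), against 7.52 (5.76 to 8.96) in LacZ cells, and hrp36 cells had one of 8.15. The median difference was -0.56, a level 1.47-fold lower in hrp48 cells, with quartiles of -0.61 and -0.48. Lower levels were found at 50 of the 51 regions, and the exception, at 21442174 to 21442509, stood at 0.16. Below -0.5 lay 35 of the 51 regions, or 68.6%, where the whole table had 6.01%. These 35 are 19.6% of all regions below -0.5 in the table.

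The stretch passed no test region by region. Its median approximate error was 0.35, 5 of its regions had an unadjusted p under 0.05 by the Wald test, and the smallest adjusted p was 0.999. The histone genes are near-identical repeats, so their regions can share reads, and their number is not a count of independent observations. The median RNH+ level of the stretch was 7.69 in both hrp48 and LacZ cells, and the median RNH+ difference was -0.03 (-0.63 to 0.32). The RNH+ minus RNH- change had a median of 0.25 in hrp48 cells and -0.77 in hrp36 cells, against -0.14 in LacZ cells. In hrp36 cells the RNH- level was higher than in LacZ, with a median difference of 0.54 (0.03 to 1.12). Both differences use the same LacZ libraries.

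The 28 regions flanking the stretch had a median of -0.28, between -0.52 and 0.09. The table's only 3 runs of at least 5 consecutive regions below -0.5 all lay inside the stretch. The longest ran over 7 regions at 21479129 to 21492521 with a median of -0.59. The others ran over 6 regions at 21424647 to 21439298, with a median of -0.56, and over 5 at 21511842 to 21520270, with a median of -0.58. With the borders of the other tables, which measure the same libraries, the uncentred median of the stretch was about the same. The hrp48 table gave a median of -0.51 over 24 regions. Of these, 13 (54.2%) lay below -0.5, against 4.58% of all regions of that table. The LacZ table gave -0.55 over 44 regions. Of these, 30 (68.2%) lay below -0.5, against 31.6% of all regions of that table. In the LacZ table the other arm regions had a median of -0.48. Centred on the arm median of each table, the stretch stood at -0.30 in the hrp36 table (49 of 51 regions below 0), -0.15 in the hrp48 table and -0.07 in the LacZ table.

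**Figure D3:**
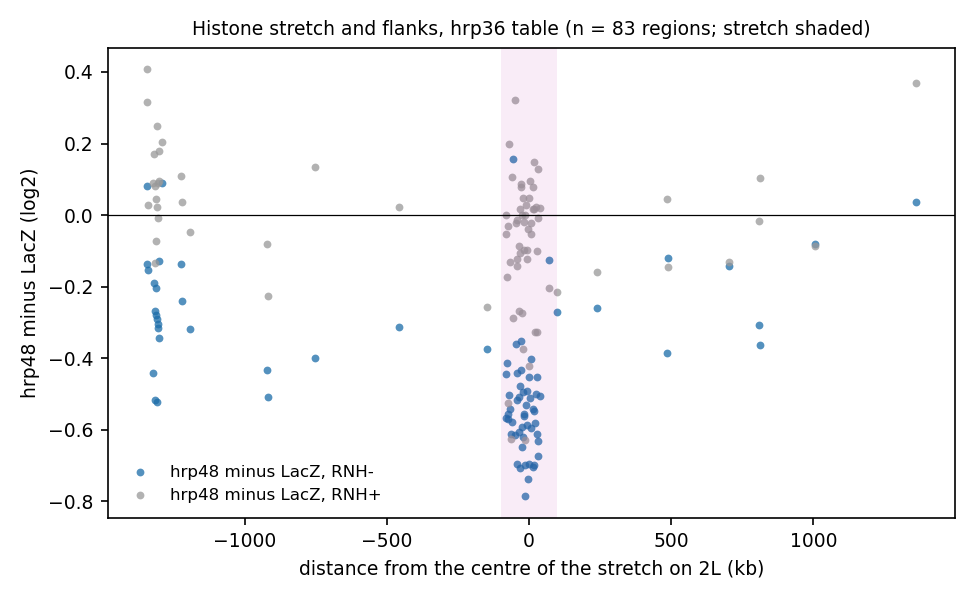
Difference in level, hrp48 minus LacZ, in log2 units (vertical axis), against the distance in kb from the centre of the histone stretch on 2L (horizontal axis), for 83 hrp36-table regions within 1500 kb. Blue points are RNH- and grey points RNH+; inside the shaded stretch 50 of 51 blue points lie below 0, 35 of them below -0.5, and the grey points have a median of -0.03.

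In the hrp36 table, 41 windows of 1 Mb held at least 5 regions, and all 41 had a median below 0, or 18 of 41 after centring on the arm median. The lowest was 2L 21 to 22 Mb, at -0.54, and 51 of its 56 regions were those of the histone stretch. Next came 3R 15 to 16 Mb at -0.42 and 2R 14 to 15 Mb at -0.40, with 5 regions each. The windows nearest 0 were X 22 to 23 Mb at -0.07, 2L 2 to 3 Mb at -0.08 and 3R 4 to 5 Mb at -0.08.

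Single regions were named by the size of their difference among those whose base mean was not under the median of their class (arms, mapped heterochromatin or unplaced). On the arms the lowest was 3R 9484823 to 9485379, with 4.32 in hrp48 cells against 4.97 in LacZ cells, a difference of -0.65 (approximate error 0.48). It passed the limit on base mean only through hrp36 cells, whose level was 11.07, and its level was low in both compared groups. The next were 2R 11862977 to 11864787 at -0.57, X 326257 to 327764 at -0.53, 2L 20191572 to 20192621 at -0.52 and 2L 20184675 to 20185692 at -0.52. The X region had 8.49 in hrp48 cells against 9.03 in LacZ cells. Taking regions of any base mean, the lowest of the table was 3L 22755163 to 22755988, with 6.99 in hrp48 cells against 7.94 in LacZ cells, a difference of -0.95 and an unadjusted p of 0.00552 by the approximate Wald test (adjusted p 0.999).

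With the same limit on base mean, the highest arm regions were 1201 to 1226 bases long, while the highest arm region of any base mean, on 2R, stood at 0.50. They were 2R 3149721 to 3150926 at 0.13, 3L 7786842 to 7788046 at 0.12, 3R 4730927 to 4732127 at 0.12, X 9692574 to 9693784 at 0.11 and 2L 2570407 to 2571632 at 0.11. At the first of these, hrp48 cells had 11.55 against 11.42 in LacZ cells. Their approximate errors were 0.45 to 0.49, so none of these differences exceeds its error. A further look, chosen after these values were seen, found 12 regions within 100 bases of the first one's length and within 0.25 log2 units of it in all 6 group means. They lay on 7 chromosomes or scaffolds and had differences of 0.06 to 0.13.

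Like lengths recurred more widely among long mapped regions, and like differences in some of these length classes. Of 296 regions of at least 1000 bases outside the histone stretch, 128 (43.2%) fell into 14 classes of at least 5 regions whose lengths lay within 20 bases. The share that unrelated lengths would give was not tested. Over all 296 the SD of the difference between regions was 0.16. The 25 regions of 5169 to 5188 bases, on 7 chromosomes or scaffolds, had a median of -0.13 and an SD between regions of 0.021. The 11 regions of 5228 to 5245 bases had a median of -0.10 and an SD of 0.016. The 5 regions of 7326 to 7341 bases had a median of -0.32 and an SD of 0.020. By contrast the 21 regions of 1198 to 1218 bases had a median of 0.08, with 16 above 0, and those of 7368 to 7388 bases (10 regions) one of -0.38. Their SDs were wider, at 0.14 and 0.11, and the RNH- level of the 21 in hrp48 cells ran from 8.12 to 11.56. The 6 regions of 1148 to 1163 bases had an SD of 0.20, above that of all 296. In the first 3 of these classes the regions thus shared both a length and a difference. Those 3 classes had median base means of 6725, 8950 and 5038, against 479 in the class of 1148 to 1163 bases. How far the SD of a class follows its base mean was not tested. Whether a class is copies of one repeated element was not tested, since no sequence of the build was used here, and such copies could share reads.

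In mapped heterochromatin, with the limit on base mean, the lowest were 2RHet 716849 to 718300 at -0.67, with 8.45 in hrp48 cells against 9.12 in LacZ cells, and 3RHet 845661 to 848137 at -0.51. After them came chromosome 4 347472 to 348505 at -0.48, 3RHet 695020 to 695855 at -0.47 and 3LHet 73465 to 74589 at -0.46. Of any base mean, the lowest was 3RHet 1275427 to 1275738 at -0.87, with 6.18 in hrp48 cells against 7.04 in LacZ cells. The 2RHet region had an unadjusted p of 0.0312 by the approximate Wald test and an adjusted p of 0.999. The highest was 3RHet 1598832 to 1599742 at 0.56, with 13.83 in hrp48 cells against 13.27 in LacZ cells. It was followed by 2LHet 367945 to 368867 at 0.44, with 15.05 in hrp48 cells against 14.61 in LacZ cells. The other 3 were 3RHet 1391068 to 1392275 at 0.11, X 22173368 to 22174617 at 0.11 and 3LHet 1735336 to 1735858 at 0.03.

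On unplaced scaffolds, with the limit on base mean, the lowest regions were U 3430902 to 3431520 at -0.68, U 1263624 to 1264102 at -0.64, Uextra 16981775 to 16982366 at -0.64, U 6560020 to 6560576 at -0.63 and Uextra 10809718 to 10810321 at -0.63. Of any base mean, the lowest was Uextra 1566786 to 1567252 at -0.92, with 7.05 in hrp48 cells against 7.97 in LacZ cells and an adjusted p of 0.999 by the approximate Wald test. The highest region of the whole table was U 1041854 to 1042944, with 9.53 in hrp48 cells against 8.57 in LacZ cells, a difference of 0.97. With RNH+ this region went the other way, with 8.60 in hrp48 cells against 10.11 in LacZ cells. Its approximate error was 0.64, and its level in hrp36 cells was 11.89. With the limit on base mean, the next were Uextra 11579991 to 11580397 at 0.86, 6806485 to 6806689 at 0.70, 9215406 to 9215776 at 0.68 and 28604014 to 28604379 at 0.68. Uextra 8316435 to 8316974, below that limit, stood at 0.79. The pair at 0.68 are among the strongest signals of the table, the first of them with 15.84 in hrp48 cells against 15.16 in LacZ cells.

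Mitochondrial DNA, whose replication passes through RNA-DNA hybrids, gave 2 regions. From 27 to 15007, hrp48 cells had 17.99 against 17.95 in LacZ cells, a difference of 0.04 (approximate error 0.37). From 15718 to 17445, hrp48 cells had 12.68 against 13.04 in LacZ cells, a difference of -0.36 (approximate error 0.47). Neither differs beyond its error. With RNH+ both stood higher in hrp48 cells, at 17.10 against 16.39 in LacZ cells in the longer region and by 1.27 log2 units over the 10.73 of LacZ cells in the shorter.

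Region length bore little relation to the difference over the whole table. By length quartile the medians were -0.13, -0.14, -0.16 and -0.16 from the shortest regions (204 to 453 bases) to the longest (738 to 37068 bases), with a Spearman rho of -0.09 over 2980 regions. On the arms the longest quartile, of 2752 to 37068 bases, stood apart. All 118 of these regions were lower in hrp48 cells as deposited, with a median of -0.14, above the -0.26 of all arm regions. The 3 shorter quartiles had medians of -0.26, -0.29 and -0.31. The histone stretch, whose regions had a median length of 868 bases (336 to 2277), was not taken out of the arm quartiles. Long mapped regions recurred at like lengths, as described above, and whether they are repeat copies that share reads was not tested. These correlations and quartiles are over regions that share the same 4 libraries, and they are given as descriptions.

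The base mean, the authors' mean normalised count per region, showed a bend rather than a slope. Quartile medians were -0.09, -0.22, -0.19 and -0.07 from low to high base mean, and the Spearman rho was 0.08. When the table was divided into 10 bins of equal number, the lowest bin (base means of 36.5 to 81.4) had a median of 0.17 and held 22 of the 48 regions above 0.5. The next 5 bins had medians between -0.22 and -0.19, and the highest bin, from a base mean of 3764, had a median of 0.07, with 13 regions above 0.5 and 0 below -0.5. Divided alike, Uextra alone had a median of 0.23 in its lowest bin and 0.21 in its highest, and the 8 bins between had medians from -0.22 to -0.09. On the arms the quartile medians were -0.19, -0.41, -0.28 and -0.13. The histone stretch, with a median difference of -0.56 and a median base mean of 207 (62.8 to 507), was not taken out of these arm quartiles. The second of them, with the lowest median, spans base means of 143 to 422. Base mean is averaged across libraries that include those compared, so it is not independent of the difference. By quartile of the hrp36 RNH- level, which uses neither compared group, the medians over the table were -0.14, -0.21, -0.18 and -0.06. On Uextra the lowest quartile by that level had a median of -0.12, against -0.03 by base mean.

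**Figure D4:**
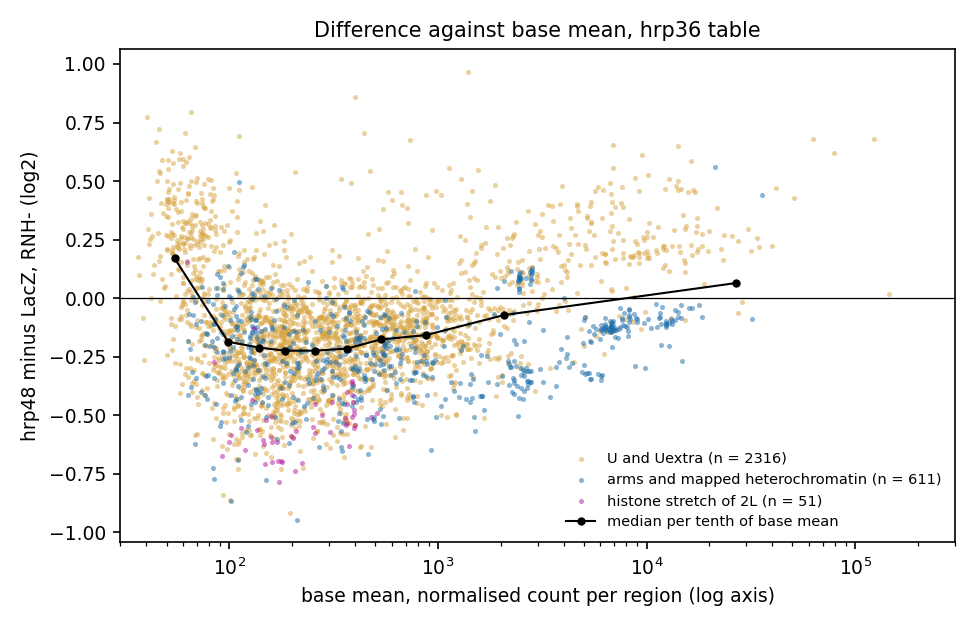
Difference in RNH- level, hrp48 minus LacZ, in log2 units (vertical axis), against the base mean of each hrp36-table region on a log axis (horizontal axis). Points are regions by class (yellow U and Uextra, blue other mapped chromosomes, magenta the histone stretch), and the black line joins the medians of 10 bins of equal number, at 0.17 in the lowest and 0.07 in the highest.

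The difference was set against the RNase H response of hrp36 cells, which uses neither compared group. In the authors' deposited table, 1338 regions (44.9%) fell with RNH+ in hrp36 cells and 159 (5.34%) rose, at an adjusted p under 0.05. The regions were found in hrp36 RNH- libraries, which are 1 side of that contrast, so these counts describe that choice as well as the response. Regions that fell, the direction that removal of RNA-DNA hybrids would give, had a median hrp48 minus LacZ difference of -0.09. Of the regions that fell, 67.1% lay below 0. The 1483 regions not called in the authors' deposited table had a median of -0.22, with 81.5% below 0. The regions that rose had a median of -0.29, with 89.3% below 0. The same order held on the arms, with medians of -0.12 over 155 regions that fell, -0.31 over 302 not called and -0.39 over 13 that rose. Spearman's rho between the difference and the hrp36 log2 fold change of the authors' deposited table was -0.32 over all regions and -0.52 over arm regions. Base mean differed with these classes on the arms, with medians of 2794 for regions that fell and 338 for those not called, and its part in the result was not tested.

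With RNH+ the median difference between hrp48 and LacZ cells was -0.05 over the hrp36-table regions, with 6 regions above 1 (0.201%) and 22 below -1 (0.738%). RNH+ and RNH- differences, which share no library, had a Spearman rho of 0.09 over all regions, -0.26 on the arms and 0.16 on Uextra. The SD of the difference between regions was 0.33 with RNH+ and 0.26 with RNH-. In hrp36 cells the RNH- level was more than 1 log2 unit above LacZ at 464 of these regions (15.6%), which were found in hrp36 libraries, and more than 1 below at 0 (0%).

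The other 2 tables list regions found in one of the compared groups, so their counts describe that choice as well as the difference. At places that 2 tables share, the difference was little changed by the borders at most pairs. Between the hrp36 and LacZ tables, 2165 matched pairs had a median gap of 0.0018 log2 units, and 98.5% had the same sign. Between the hrp36 and hrp48 tables, 2363 pairs had a median gap of 0.0025, and 97.8% had the same sign. The gap was above 0.5 at 1 pair of hrp36 and LacZ and at 6 pairs of hrp36 and hrp48.

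The listing of a place in the hrp48 or LacZ table was decided in the same RNH- libraries that are compared, so the split by listing that follows is a description of that choice and supports nothing. Of the hrp36-table regions, the 410 also listed in the hrp48 table but not in the LacZ table had a median of 0.04. The 218 also listed in the LacZ table only had a median of -0.34. The 1958 listed in all 3 tables (65.7%) had a median of -0.16, and the 394 listed in neither other table had one of -0.15. Regions of the arms behaved likewise, with -0.08 over 12 shared with the hrp48 table only and -0.37 over 69 shared with the LacZ table only.

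In the LacZ table hrp48 cells were lower at 5774 of 6477 regions, with a median of -0.38. More than 1 log2 unit lower were 37 regions (0.571%), 33 of them on the arms, and 0 were more than 1 higher (0%). Below -0.5 lay 2046 regions (31.6%) and above 0.5 lay 21 (0.324%). The approximate Wald test with Benjamini-Hochberg adjustment called 2 regions lower (0.0309%) and 0 higher (0%), while an unadjusted p under 0.05 was reached by 555 regions lower and 0 higher. One of the 2 was an unplaced region described below, and without it the test called 0. The other was 2R 142105 to 142503 in the pericentromeric part, with 5.84 in hrp48 cells against 7.10 in LacZ cells, a difference of -1.27. By part, the medians were -0.48 on the arms, -0.41 in the pericentromeric parts, -0.38 on the Het scaffolds, -0.43 on chromosome 4, -0.25 on U and -0.16 on Uextra.

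By base mean, quartile medians of the LacZ table were -0.51, -0.46, -0.38 and -0.11 from low to high, with a Spearman rho of 0.56, and the top quartile of Uextra had a median of 0.19. Regions that overlap a region of the hrp36 table had a median of -0.18 over 2386, and those that overlap none had one of -0.48 over 4091. All 119 windows of 1 Mb with at least 5 regions had a median below 0, or 57 after centring on the arm median of that table. The lowest were 3L 15 to 16 Mb at -0.70, 2R 16 to 17 Mb at -0.64 and 2R 17 to 18 Mb at -0.62, and the highest were X 22 to 23 Mb at -0.20, X 4 to 5 Mb at -0.25 and 3L 24 to 25 Mb at -0.27. The longest run below -0.5 held 13 regions at 3R 5258508 to 5417881, with a median of -0.70.

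Among the LacZ-table regions chosen by the naming rule, the lowest on the arms were 3R 2062151 to 2062727 at -1.19, with 6.25 in hrp48 cells against 7.44 in LacZ cells, 3R 19144890 to 19145202 at -1.05 and 3L 18779285 to 18779849 at -1.02. The highest arm region, 2L 490619 to 490829, stood at 0.19. In mapped heterochromatin the lowest was 2RHet 927460 to 927752 at -0.85. The highest there, 2RHet 5 to 355, stood at 0.89, with 16.63 in hrp48 cells against 15.74 in LacZ cells and an approximate error of 0.67.

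The hrp48 table fell into 2 populations. Above 1 lay 3762 of 7735 regions (48.6%), and only 56 lay between 0.5 and 1. Of the 3762 regions, 3748 were on U and Uextra and 14 elsewhere. Below -1 lay 0 regions (0%), below -0.5 lay 354 (4.58%), and above 0.5 lay 3818 (49.4%). The approximate Wald test with Benjamini-Hochberg adjustment called 3763 higher (48.6%) and 14 lower (0.181%) in hrp48 cells. The regions were found in the hrp48 RNH- libraries being tested, so these calls describe that choice as well as the difference. The 14 lower regions had an unadjusted p of 0.0026 to 0.023 by this test, and the many higher calls loosen the adjusted limit for them. The median was 1.96 on U and 2.02 on Uextra, against -0.35 on the arms, -0.19 in the pericentromeric parts, -0.23 on the Het scaffolds and -0.25 on chromosome 4. Base mean separated the populations, with quartile medians of 2.27, 2.18, -0.17 and -0.09 from low to high.

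These higher regions were nearly absent from the places used for the main comparison. Only 2 regions of the hrp36 table overlapped any of them, and 0 of the LacZ table. Those 2 had differences of -0.25 (U 6715456 to 6717479) and 0.18 (U 7859579 to 7860024). The 4414 unplaced hrp48-table regions that overlap no hrp36-table region held 3746 of the regions above 1. Their median RNH- level was 6.90 in hrp48 cells and 5.63 in hrp36 cells, against 4.73 in LacZ cells. With RNH- hrp36 cells thus also stood above LacZ cells there, by a median of 0.78. Their median RNH+ level was 5.80 in hrp48 cells and 6.06 in hrp36 cells, against 6.14 in LacZ cells. At 3339 of the 3762 regions (88.8%), the RNH- level of hrp36 cells was below 6.20, the lowest such level that the hrp36 table lists. The hrp36 table thus measured hardly any of these places, and its median of -0.15 does not describe them. Beside them, the 1099 arm regions of the hrp48 table kept the direction of the hrp36 table, with 1046 lower in hrp48 cells and a median below 0 in all 91 windows of 1 Mb (46 after centring on their arm median). The lowest windows were 2L 13 to 14 Mb at -0.51, 2L 16 to 17 Mb at -0.50 and 3R 16 to 17 Mb at -0.49, and the highest were X 22 to 23 Mb at -0.06, X 4 to 5 Mb at -0.09 and X 9 to 10 Mb at -0.11.

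The only run of raised regions on a mapped scaffold was on 3LHet. From 2160538 to 2185380, 10 consecutive regions had a median RNH- level of 7.26 in hrp48 cells against 5.06 in LacZ cells, a median difference of 2.15 (1.90 to 2.51). Neither the hrp36 nor the LacZ table lists a region inside it. With RNH+ the same 10 regions had a median of 6.16 in hrp48 cells against 6.55 in LacZ cells, so the higher level was seen with RNH- and not with RNH+. The longest run above 0.5 was on U, with 31 regions at 8129575 to 8264640 and a median of 2.26. The longest run below -0.5 held 7 regions at 2L 16188028 to 16508897, with a median of -0.56.

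By the naming rule, the lowest arm regions of the hrp48 table were X 5818412 to 5818945 at -0.79, with 7.13 in hrp48 cells against 7.92 in LacZ cells, 2R 3644991 to 3645729 at -0.77 and 3R 5055099 to 5055430 at -0.74. The highest arm region was 2L 6923896 to 6924326 at 4.14, and the next, 2L 490604 to 490928, stood at 0.15. In mapped heterochromatin the highest was 3LHet 2182857 to 2185380 at 2.02, the last region of the run above, and the lowest was 3LHet 1243681 to 1244511 at -0.65.

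A single region of each table was high in 1 cell group alone, by more than 2 log2 units over both other groups with RNH- and with RNH+. In the hrp48 table it was the 2L region of 431 bases at 6923896 to 6924326. Its RNH- level was 9.22 in hrp48 cells and 4.53 in hrp36 cells, against 5.09 in LacZ cells, 17.6-fold higher in hrp48 than in LacZ cells. Its RNH+ level was 9.43 in hrp48 cells and 4.21 in hrp36 cells, against 5.49 in LacZ cells. Its RNH+ over RNH- log2 fold change in hrp48 cells was -0.01 with an SE of 0.62 in the authors' deposited table, and the adjusted p given there was 0.968. The region was found in hrp48 libraries and chosen for this excess, so these values are a description.

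In the LacZ table the region was Uextra 11425868 to 11426255, of 388 bases. Its RNH- level was 2.11 in hrp48 cells and 2.44 in hrp36 cells, against 9.14 in LacZ cells, a difference of -7.03 and 130-fold on the log2(normalised count + 1) scale. Its RNH+ level was 4.94 in hrp48 cells and 4.59 in hrp36 cells, against 8.57 in LacZ cells. In the hrp36 table the region was 3R 9484823 to 9485379, of 557 bases, with an RNH- level of 4.32 in hrp48 cells and 11.07 in hrp36 cells, against 4.97 in LacZ cells. The smaller of the RNH- and RNH+ gaps was 3.63 to 4.79 at these 3 regions and at most 0.83 at any other region of the tables. Each was listed only in the table of the group in which it was high. The regions of hrp48 and hrp36 lie on the arms that carry Hrb27C (2L) and Hrb87F (3R). Whether they lie within those genes was not tested, since no annotation of the dm3 build was used here. Whether the signal at any of the 3 regions, that of LacZ on Uextra included, came from nucleic acid used for the knockdowns and not from the chromosomes was not tested, so the 17.6-fold and 130-fold values cannot be read as differences in genomic S9.6 signal.

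**Figure D5:**
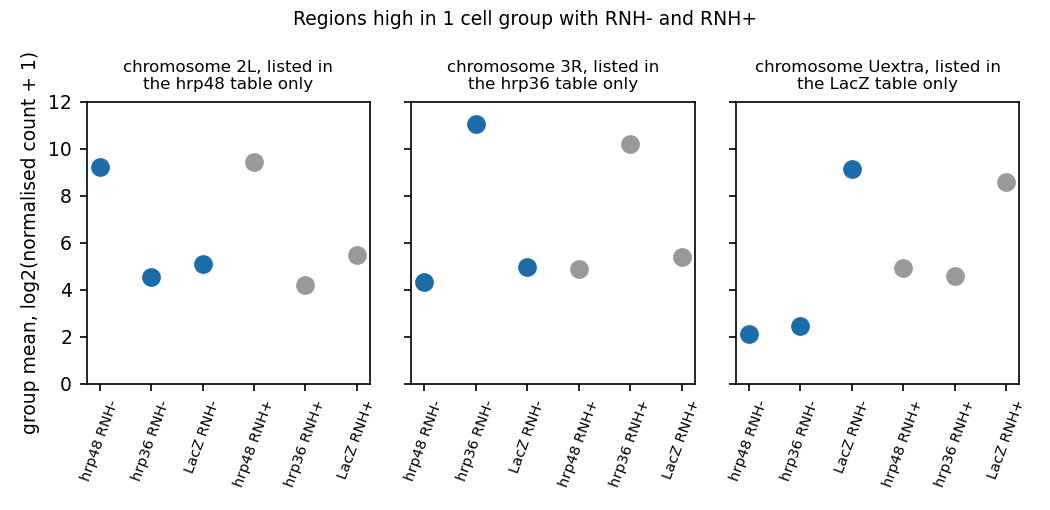
Group mean level, log2(normalised count + 1) (vertical axes), in hrp48, hrp36 and LacZ cells (horizontal axes), RNH- in blue and RNH+ in grey, at the 3 regions high in 1 cell group. In each panel 1 group stands at 8.57 or more with both treatments and the other groups at 5.5 or less.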

How the data were processed

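DRIP-seq libraries of S2 cells were made per the labels' protocols from phenol-chloroform-extracted, sonicated genomic DNA, precipitated with the S9.6 antibody. Per the submitters' processing notes the build was dm3 and the tools Bowtie2 2.2.2, MACS 1.4.2 and DESeq2. The sources used here do not give their order, the peak-calling scheme or the treatment of multiply mapping reads. The authors deposited group means on a log2 scale, found from the values to be means of log2(normalised count + 1). The base mean deposited by the authors is the normalised signal of a region averaged across libraries. The authors' log2 fold change of RNH+ over RNH- (columns Tr and Un) is shrunken by its table name, per the file headers. The authors also deposited a Wald score, a call score, and p-values before and after adjustment.

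The difference was the hrp48 RNH- minus the LacZ RNH- group mean. Its approximate Wald test divided it by the authors' standard error times the table's median ratio of unshrunken to shrunken errors. That ratio was 1.05 for hrp36, 1.08 for LacZ and 1.08 for hrp48. A normal approximation and Benjamini-Hochberg adjustment over the table were used. The test was also run on simulated differences drawn with these same errors, so the simulation cannot show whether they fit this contrast. Pericentromeric parts, with rounded borders from general knowledge, began at 22 Mb on 2L and X and at 23 Mb on 3L, and reached 1.3 Mb on 2R and 0.4 Mb on 3R. Named regions were the 5 highest and 5 lowest per class at or above the class's median base mean (3 in the other tables, of which some are named), all mitochondrial regions of the hrp36 table, and the extreme windows and runs. Regions of 2 tables were matched where each was the other's best overlap, with a minimum of 1 base. The members, rules and lists were chosen with earlier results of these data known. The RefSeq gene table used here is of another build and served only to name the arms of Hrb27C and Hrb87F. Input libraries were not used here. Alternatives were other tables, centring, filters on base mean and length, a pseudocount of 0.5, and other thresholds. Scripts ran under Python 3.11.15 with pandas 2.3.3, NumPy 2.4.6, Matplotlib 3.10.9 and SciPy 1.17.1.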

Additional observations from a re-analysis of the deposited data

How the results depend on the processing

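The values depended mainly on which table of regions was used and on centring. In the hrp48 table the median turned to 0.45 over all regions, 1.96 on U and 2.02 on Uextra, with 3762 regions more than 1 log2 unit higher and 3777 past the approximate Wald test. Without the 2L region high in hrp48 cells alone these counts were 3761 and 3776. With regions of LacZ, 37 were more than 1 lower and 2 passed the test, and without the region high in LacZ cells alone 36 and 0, an alternative chosen after seeing the data, as was leaving out the histone stretch. Centring on the arm median turned the median to 0.11 over all regions, 0.12 in the pericentromeric parts, 0.052 on the Het scaffolds, 0.12 on U and 0.13 on Uextra, with 4 regions above 1. With a rule of 0.5 log2 units 48 regions were higher and 179 lower. Of the alternatives, 60 values kept their direction and their side of the threshold or moved by less than the spread. That spread was the median approximate error, 0.39 over all hrp36-table regions, so the LacZ-table median of -0.38 is among the 60. Some of the 60 were counts past 1 log2 unit in subsets of the hrp36 table, which could only be 0. Another 10 values moved and 8 changed direction. The cause of these changes was not tested, except that the tables list different places and centring adds a constant. No paired analysis was possible because the tables hold 1 mean per group, and for the same reason no library could be left out in turn and depth per library is unknown.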
